A study of Mus musculus with 12 samples.

Results

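The genes examined here encode subunits of the respiratory chain and its mobile carrier cytochrome c: 38 genes, of which 13 are encoded by mitochondrial DNA and 25 by nuclear DNA. They were taken from a list of symbols and made up 38 of the 49585 genes in the count table. All 38 passed the filter on low counts, as did 16318 genes in all. The 13 mitochondrial genes are all the protein-coding genes of the mouse mitochondrial genome. The nuclear genes are a selection: 8 of complex I, 4 of complex II, 5 of complex III, 7 of complex IV and the gene of cytochrome c.

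The respiratory chain lies in the inner mitochondrial membrane and passes electrons from NADH and succinate to oxygen through complexes I to IV, and ATP synthase (complex V) uses the proton gradient that this builds. Most subunits are made in the cytosol from nuclear genes and imported, whereas the core subunits that span the membrane in complexes I, III, IV and V are translated inside the organelle from long transcripts of both strands of mitochondrial DNA. A working complex needs subunits of both origins, while the RNAs of each origin are made, processed and degraded by different machineries. Osteoblasts are known to draw on glycolysis as well as respiration while they lay down matrix.

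Bcl3, an atypical IκB protein that binds p50 and p52 NF-κB dimers, was the gene deleted in the mutant mice. Osteoblasts grown from the calvariae of neonates at postnatal day 3 to 5, with 1 to 3 calvariae pooled per culture, were kept in medium with 50 µg/mL ascorbic acid and 2 mM β-glycerophosphate, which all groups received. The 4 groups of 3 libraries were Bcl3-/- on day 3, WT on day 3, Bcl3-/- on day 1 and WT on day 1. The labels give 6 cultures, 3 per genotype, each sampled on both days, and each library was made from 10 ng RNA with oligo-dT priming and read at 75 bases.

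Gene counts ranged between 20009732 and 41953891 per library, with a median of 31792039. Levels are counts scaled to library size (CPM) with TMM factors, differences are log2 fold changes (log2FC), and a gene was called changed at an adjusted p under 0.05 in edgeR's quasi-likelihood test, with Benjamini-Hochberg adjustment over 16318 genes. Bcl3 itself stood at 10.2, 9.72 and 8.31 CPM in day 3 Bcl3-/- libraries, against 14.8, 15.9 and 12.8 CPM in day 3 WT libraries (log2FC -0.62, SE 0.12, edgeR adjusted p = 0.00809). On day 1 it stood at 17.5, 19.7 and 19.2 CPM in the libraries labelled Bcl3-/-, against 18.0, 21.8 and 17.8 CPM in WT. The day 1 counts thus did not separate the genotypes (log2FC -0.03, SE 0.12, edgeR adjusted p = 0.888). Which part of the gene was deleted is not given in the sources used here, so the groups are named by their labels and every direction by genotype rests on them. One library stood apart for the respiratory chain genes: day 3 Bcl3-/- replicate 3 had the lowest gene count, and 0.121% of its gene counts lay in the mitochondrial 16S rRNA gene mt-Rnr2, against 0.211 to 0.363% in the other 11 libraries. Many of the ratios, shares, counts of calls and medians that include it are also given without it. A value given only with it may change without it. Most members of both origins lay below their group mean there, so values without it are not an independent check. The osteoblast markers fixed for this work (Col1a1, Col1a2, Runx2, Sp7, Alpl, Sparc, Spp1 and Ibsp) summed to between 38263 and 86719 CPM and were all detected in every group. Col1a1 and Col1a2 made up most of the sum. On day 1, 4 of the 8 were called higher in Bcl3-/- and 1 lower (Sp7, log2FC -0.92), beside 9.02% and 6.36% of all genes. On day 3, 1 was called higher (Alpl, log2FC 1.77) and 1 lower (Spp1, log2FC -1.32), beside 4.78% and 5.66%.

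Which reads can be counted for a mitochondrial gene depends on a nuclear copy of part of the mitochondrial genome. Chromosome 1 of GRCm38 carries such a copy on the minus strand, in which 7 annotated genes repeat 7 of the 13 mitochondrial members. The first 294 of the 297 bases of mt-Nd4l, a membrane subunit of complex I, are shown because the copy Gm10222 has the same 294 bases. The same run stands at chrM:9877-10170 and, on the minus strand, at chr1:24612407-24612700. No base differs, so none is in capitals.
mt-Nd4l and Gm10222: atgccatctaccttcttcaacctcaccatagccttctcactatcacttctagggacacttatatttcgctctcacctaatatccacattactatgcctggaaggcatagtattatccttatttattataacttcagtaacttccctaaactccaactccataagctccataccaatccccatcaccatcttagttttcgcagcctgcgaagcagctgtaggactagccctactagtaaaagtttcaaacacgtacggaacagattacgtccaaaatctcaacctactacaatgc

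In mt-Co1, the catalytic subunit of complex IV, only bases 1054 to 1545 of 1545 are copied, as Gm29216. The first 60 bases of the copied stretch are shown because all 6 bases that differ between gene and copy lie there. Capitals mark the differing bases, at chrM:6381-6440 and at chr1:24616138-24616197 on the minus strand.
mt-Co1: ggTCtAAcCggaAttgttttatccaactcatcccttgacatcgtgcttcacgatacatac
Gm29216: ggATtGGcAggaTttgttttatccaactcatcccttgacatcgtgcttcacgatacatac

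In mt-Nd3, another membrane subunit of complex I, gene and copy Gm28438 differ at a single base of 345. It lies in the first 60 bases, at chrM:9459-9518 and chr1:24613060-24613119 (minus strand), and is in capitals.
mt-Nd3: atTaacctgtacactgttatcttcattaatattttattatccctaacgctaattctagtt
Gm28438: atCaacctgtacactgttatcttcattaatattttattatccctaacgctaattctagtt

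Each possible 75-base read of the 7 genes was looked up in its copy. For mt-Co2 607 of 610 such reads were also found in Gm28661, for mt-Co3 709 of 710 in Gm28437, and for mt-Atp6 604 of 607 in Gm10925. For mt-Nd4, a proton-pumping subunit of complex I, 802 of 1304 were found in Gm28439. For mt-Co1 405 of 1471 were found in Gm29216. Nearly all single reads of mt-Co2, mt-Co3, mt-Atp6, mt-Nd3 and mt-Nd4l could therefore not be placed uniquely. Pairs with 1 read outside the copied gene were not looked up. Over all 12 libraries these 5 genes held 768, 600, 1861, 296 and 256 reads. Their copies held between 0 and 26 reads each. The other 6 mitochondrial members (mt-Nd1, mt-Nd2, mt-Nd5, mt-Nd6, mt-Cytb and mt-Atp8) have no annotated copy there and held 67.6% of all mitochondrial reads. The end of mt-Atp8 overlaps mt-Atp6, which is copied from its base 1, so that end is copied too. The rest of mt-Atp8 lies between the copied mt-Co2 and mt-Atp6. It was not looked up on chromosome 1, so it may be copied there as well.

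The deposited FPKM values, levels per length and depth that the authors estimated with another program, placed the copied genes elsewhere. The catalytic subunit mt-Co2 averaged 567 FPKM and its copy 566 FPKM, mt-Co3 and its copy both averaged 1287 FPKM, and mt-Atp6, the proton channel subunit of ATP synthase, averaged 1402 FPKM and its copy 1401 FPKM. Gene and copy thus had nearly equal values for sequences that are identical. By FPKM mt-Atp6 ranked 1 and mt-Co3 ranked 2 among the 13 mitochondrial genes, whereas by CPM per kilobase of coding length they ranked 9 and 13. By CPM per kilobase mt-Cytb, the cytochrome b of complex III, came first, followed by mt-Nd1, the complex I subunit at the ubiquinone site, and mt-Co1. For the nuclear members the 2 measures gave levels of the same order, with means between 58.9 FPKM (Ndufs1) and 358 FPKM (Ndufa4) and a median of 113 FPKM, against a median of 567 FPKM for the mitochondrial members.

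**Figure D1:**
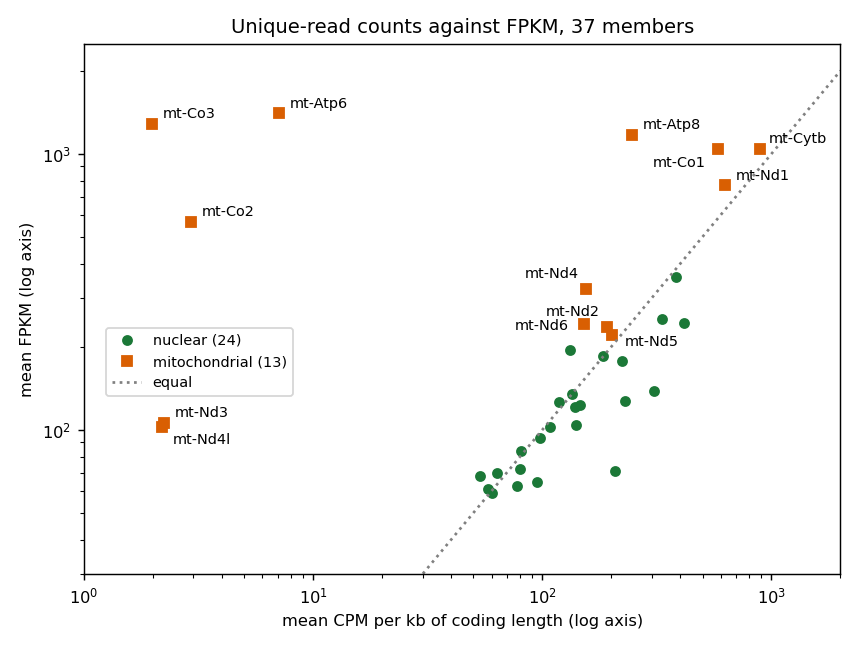
Mean level over 12 libraries of 37 members as CPM per kilobase of coding length (horizontal, log axis) and as deposited FPKM (vertical, log axis), with mitochondrial members as squares, nuclear members as circles and equal values on the dotted line. mt-Atp6, mt-Co3, mt-Co2, mt-Nd3 and mt-Nd4l lie far above the line, at 1402, 1287, 567, 106 and 102 FPKM, although they held few counts. Cox4i1 was not used in FPKM.

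The 13 genes lie on both strands of the circular genome, with mt-Co1 at chrM:5328-6872, mt-Cytb at chrM:14145-15288 and mt-Nd5 at chrM:11742-13565 on the plus strand, and mt-Nd6 at chrM:13552-14070 on the minus strand (GRCm38, GENCODE M21), where its end overlaps that of mt-Nd5. The ends of mt-Atp8 (chrM:7766-7969) and mt-Atp6 (chrM:7927-8607) overlap as well. Mitochondrial genes have no introns. In counts, 3 genes held most of the mitochondrial signal: mt-Cytb had 29.6% of the reads of the 13 genes, mt-Co1 25.9% and mt-Nd1 17.6%. The complex I subunits mt-Nd5, mt-Nd4 and mt-Nd2 had 10.7, 6.29 and 5.89%. mt-Nd6, the sole mitochondrial mRNA from the light strand, had 2.27%, and mt-Atp8, a small subunit of ATP synthase, 1.46%. Among nuclear members Sdha, the flavoprotein of succinate dehydrogenase, had the most reads, with 11.4% of those of the 25 genes. The reads behind these shares numbered 61890 to 145741 per library for the mitochondrial members and 40065 to 114542 for the nuclear ones.

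The summed counts of the mitochondrial over the nuclear members, as a log2 ratio, compare the origins within each library and do not depend on library scaling. The ratio was 0.66, 0.83 and 0.68 in day 3 Bcl3-/- libraries, against 0.54, 0.44 and 0.48 in day 3 WT libraries. It was 0.45, 0.43 and 0.36 in day 1 Bcl3-/- libraries, against 0.37, 0.25 and 0.34 in day 1 WT libraries. Mitochondrial counts exceeded nuclear counts in every library, most in day 3 Bcl3-/- libraries, which lay above the libraries of each other group; the day 1 genotypes overlapped.

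By genotype on day 3 the mean ratio was 0.72 ± 0.09 in Bcl3-/- and 0.49 ± 0.05 in WT libraries (SD, n = 3 each), a difference of 0.24 (two-sided exact permutation p = 0.1, the smallest that 3 against 3 libraries can give). On day 1 it was 0.41 ± 0.05 in Bcl3-/- and 0.32 ± 0.06 in WT libraries, a difference of 0.09 (exact permutation p = 0.2). Over time the ratio was higher on day 3 by 0.31 in Bcl3-/- and by 0.17 in WT, again without overlap. Exact permutation p was 0.1 for each, in a test that ignored the pairing of the days by culture. None of these differences passed adjustment over the 12 comparisons of ratio and shares. Adjusted exact permutation p was 0.4 for the 3 at p = 0.1, and 0.48 for day 1. The exact test of 3 against 3 libraries gives no unadjusted p below 0.1. Without day 3 Bcl3-/- replicate 3 the day 3 genotype difference was 0.26 and the time difference in Bcl3-/- 0.33.

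Since each culture was sampled on both days, the change of the ratio can be read culture by culture. From day 1 to day 3 it changed by 0.21, 0.40 and 0.32 in the Bcl3-/- cultures B3, B4 and B6, against 0.17, 0.19 and 0.14 in the WT cultures W1, W2 and W4. The ratio was higher on day 3 in 6 of 6 cultures, and the smallest change of a Bcl3-/- culture exceeded the largest of a WT culture. The mean change was 0.31 ± 0.10 in Bcl3-/- and 0.17 ± 0.02 in WT cultures (SD, n = 3 each), a difference of 0.14 (two-sided exact permutation p = 0.1, the smallest possible). Without culture B6, whose day 3 library stood apart, the difference was also 0.14.

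**Figure D2:**
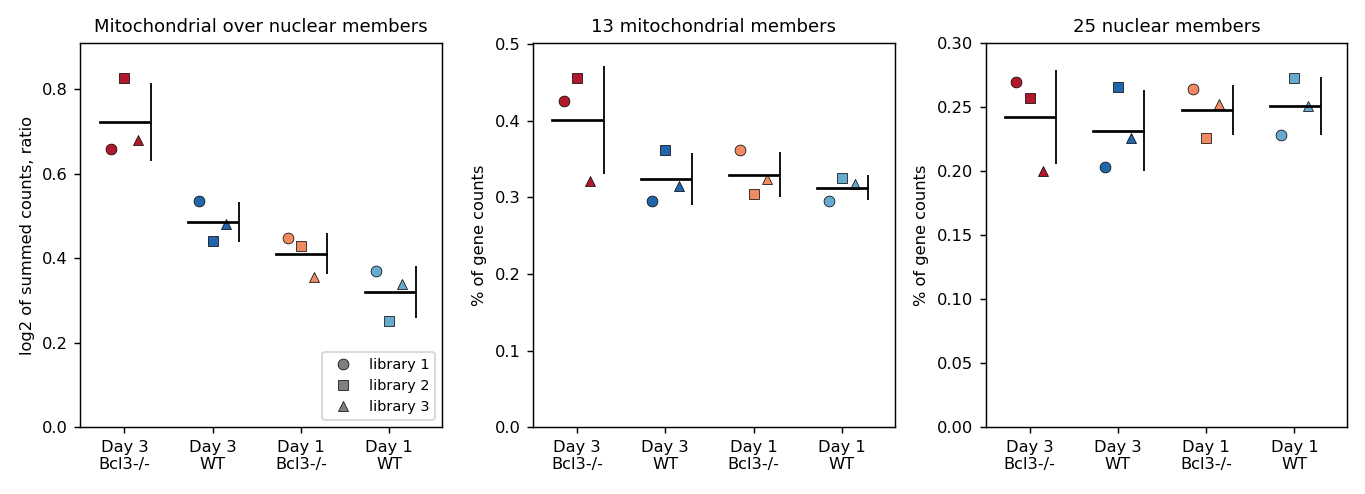
The log2 ratio of summed mitochondrial to nuclear counts (left), and the percent of all gene counts in the 13 mitochondrial (middle) and 25 nuclear members (right), in each library of the 4 groups. Points are libraries, horizontal lines means and vertical lines ± SD (n = 3). The ratio of day 3 Bcl3-/- libraries lies between 0.66 and 0.83, above all other libraries, whereas the nuclear shares of the groups overlap. Symbols give the replicate number, which is the same culture on both days of a genotype.

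The shares of the total separated the groups less than the ratio did. The mitochondrial members took 0.425, 0.456 and 0.321% of gene counts in day 3 Bcl3-/- libraries, against 0.295, 0.361 and 0.315% in day 3 WT libraries, a difference of 0.0769 percentage points (exact permutation p = 0.2). On day 1 they took 0.329 ± 0.029% in Bcl3-/- and 0.313 ± 0.016% in WT libraries (SD, n = 3 each; exact permutation p = 0.5). The nuclear members took 0.242 ± 0.037% in day 3 Bcl3-/- and 0.232 ± 0.032% in day 3 WT libraries, and 0.248 ± 0.020% in day 1 Bcl3-/- and 0.251 ± 0.023% in day 1 WT libraries, with exact permutation p = 0.8 for both. In each share the groups overlapped, on day 3 for the mitochondrial share only through Bcl3-/- replicate 3. Without it the mitochondrial share differed by 0.117 percentage points between day 3 genotypes and by 0.111 between days in Bcl3-/-. The nuclear share then differed by 0.0316 and 0.0156, with overlap. Replicate 3 was lowest of its group in both shares, so leaving it out could only raise these differences. The groups then no longer overlapped in the mitochondrial share, which its removal fixed in advance. With 1 library left out in turn the day 3 genotype difference of the mitochondrial share lay between 0.0493 and 0.117. In each of the 4 groups the library lowest in one origin was also lowest in the other. In these bulk cultures, fewer cells of a type and less RNA per cell cannot be told apart.

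The ratio was recomputed in other ways that bear on the weight of each member, on the nuclear copy and on the unit. As a difference of mean log2 CPM, which weighs members equally, it stood at -0.92, -0.73 and -1.18 in day 3 Bcl3-/- libraries, against -1.19, -1.17 and -1.28 in day 3 WT libraries. Those groups overlapped through Bcl3-/- replicate 3 (difference 0.27, exact permutation p = 0.2), or differed by 0.39 without it, while the day 1 genotypes did not overlap (difference 0.09, exact permutation p = 0.1). The ratio was also taken with only the 6 mitochondrial members that have no annotated copy on chromosome 1. The day 3 genotype difference was then 0.19 and the time difference in Bcl3-/- 0.21, both without overlap (exact permutation p = 0.1). Without day 3 Bcl3-/- replicate 3 these differences were 0.23 and 0.25. The same measure gave 0.07 over time in WT, with overlapping groups (exact permutation p = 0.3), and 0.04 by genotype on day 1 (exact permutation p = 0.3). In FPKM the ratio averaged 1.68 ± 0.09 in day 3 Bcl3-/- and 1.45 ± 0.05 in day 3 WT libraries, and 1.38 ± 0.05 in day 1 Bcl3-/- and 1.31 ± 0.06 in day 1 WT libraries (SD, n = 3 each), and with the FPKM of the copies added it lay between 2.24 and 2.40 in day 3 Bcl3-/- and between 2.04 and 2.11 in day 3 WT libraries. Without day 3 Bcl3-/- replicate 3 the day 3 genotype difference was 0.22 in FPKM, and 0.23 with the copies. The percent of reads that the authors' count table lists as not unique also differed between groups, at 10.9 ± 0.3% in day 3 Bcl3-/- and 11.5 ± 0.1% in day 3 WT libraries, and at 11.9 ± 0.1% in day 1 Bcl3-/- and 12.5 ± 0.3% in day 1 WT libraries. Its part in the ratio was not tested beyond the values without genes that have an annotated copy.

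Gene by gene on day 3, 2 of the 13 mitochondrial members were called higher and 0 lower in Bcl3-/- than in WT libraries, and 0 of 25 nuclear members were called in either direction. Of all genes tested, 4.78% were called higher and 5.66% lower. Among the nuclear members edgeR gave no unadjusted p under 0.05, DESeq2 called 0, and limma on FPKM called 0 with 2 of 24 at an unadjusted p under 0.05. The log2FC had a median of 0.42 over the mitochondrial members, of 0.08 over the nuclear members and of -0.00 over all genes. They were positive for 13 of 13 mitochondrial and 19 of 25 nuclear members, and for 8089 of the 16318 genes tested. The mitochondrial count of 13 positive members was the same under each of the 4 other scalings and in FPKM, where 13 of the nuclear members were positive.

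mt-Co1 stood at 1211, 1279 and 1082 CPM in day 3 Bcl3-/- libraries, against 850, 939 and 884 CPM in day 3 WT libraries. Every Bcl3-/- library was above every WT library. Its log2FC was 0.42 (SE 0.09, edgeR adjusted p = 0.0095). It no longer passed once day 3 Bcl3-/- replicate 2 was removed (adjusted p = 0.0523), nor in limma on log2(FPKM + 1), where it passed again if genes of low FPKM were filtered (adjusted p = 0.0189). mt-Nd6, a membrane subunit of complex I, stood at 127, 139 and 83.0 CPM in day 3 Bcl3-/- libraries, against 55.4, 75.6 and 74.9 CPM in day 3 WT libraries. The groups did not overlap, though the lowest Bcl3-/- value lay near the highest WT values. Its log2FC of 0.76 (SE 0.18, edgeR adjusted p = 0.0215) was the largest of any member in this comparison. It did not pass without day 3 Bcl3-/- replicate 1 or 2 or day 3 WT replicate 1 (edgeR adjusted p = 0.053, 0.0928 and 0.092), nor without a count filter, with only the 6 libraries compared (edgeR adjusted p = 0.0947 and 0.0678) or in limma on unfiltered FPKM. The kit does not mark the strand, so reads of mt-Nd6 and of RNA from the opposite strand cannot be told apart. Of all genes tested 13.1% had day 3 Bcl3-/- libraries all above WT libraries, as did 2 of the 13 mitochondrial members (mt-Co1 and mt-Nd6) and 1 of the 25 nuclear members, Sdhc, a membrane anchor of succinate dehydrogenase.

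mt-Nd6 was also set against the other 5 mitochondrial members with no annotated copy, which are read from the heavy strand. The log2 ratio was -4.41, -4.40 and -4.61 in day 3 Bcl3-/- libraries, against -5.12, -5.00 and -4.79 in day 3 WT libraries. All of the Bcl3-/- libraries lay above the WT libraries, by 0.50 on average (exact permutation p = 0.1, the smallest possible), or by 0.56 without day 3 Bcl3-/- replicate 3. For mt-Co1 the log2 ratio to the same 5 members was -1.15, -1.20 and -0.90 in day 3 Bcl3-/- libraries, against -1.19, -1.36 and -1.23 in day 3 WT libraries, which overlapped (difference 0.17, exact permutation p = 0.2, and 0.08 without replicate 3). For mt-Nd6 on day 1 the mean was -5.02 ± 0.09 in Bcl3-/- and -5.08 ± 0.08 in WT libraries, which overlapped (SD, n = 3 each).

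Of the members that were not called on day 3, mt-Cytb came nearest. It stood at 1213, 1359 and 1033 CPM in Bcl3-/- libraries, against 891, 1066 and 945 CPM in WT libraries, and the groups overlapped through Bcl3-/- replicate 3 (log2FC 0.31, SE 0.11, edgeR adjusted p = 0.0795; called by DESeq2). The copied genes mt-Co2, mt-Co3 and mt-Atp6 had log2FC of 0.66, 0.49 and 0.44 on few reads, and of 0.29, 0.37 and 0.23 on the log2(FPKM + 1) scale, and none was called. Among the nuclear members the largest was Cox6c, a small subunit of complex IV, at 0.34 (SE 0.27, edgeR adjusted p = 0.467). Ndufs1, the iron-sulfur core subunit of complex I, had all Bcl3-/- libraries below WT (115.8, 120.1 and 127.4 CPM, against 127.9, 127.8 and 133.4 CPM). So had 2549 of the 16318 genes tested, and Ndufs1 did not pass the test (log2FC -0.10, SE 0.06, edgeR adjusted p = 0.327). With 1 library of this comparison left out in turn, 0 to 6 mitochondrial members were called. The highest count came without day 3 Bcl3-/- replicate 3, with 6 called higher (mt-Nd4, mt-Nd5, mt-Nd6, mt-Cytb, mt-Co1 and mt-Co2). Of all genes tested in that fit, 3.57% were called higher and 5.48% lower. The medians were 0.59 over mitochondrial and 0.25 over nuclear members. In that fit 0 nuclear members were called, with 3 at an unadjusted edgeR p under 0.05.

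**Figure D3:**
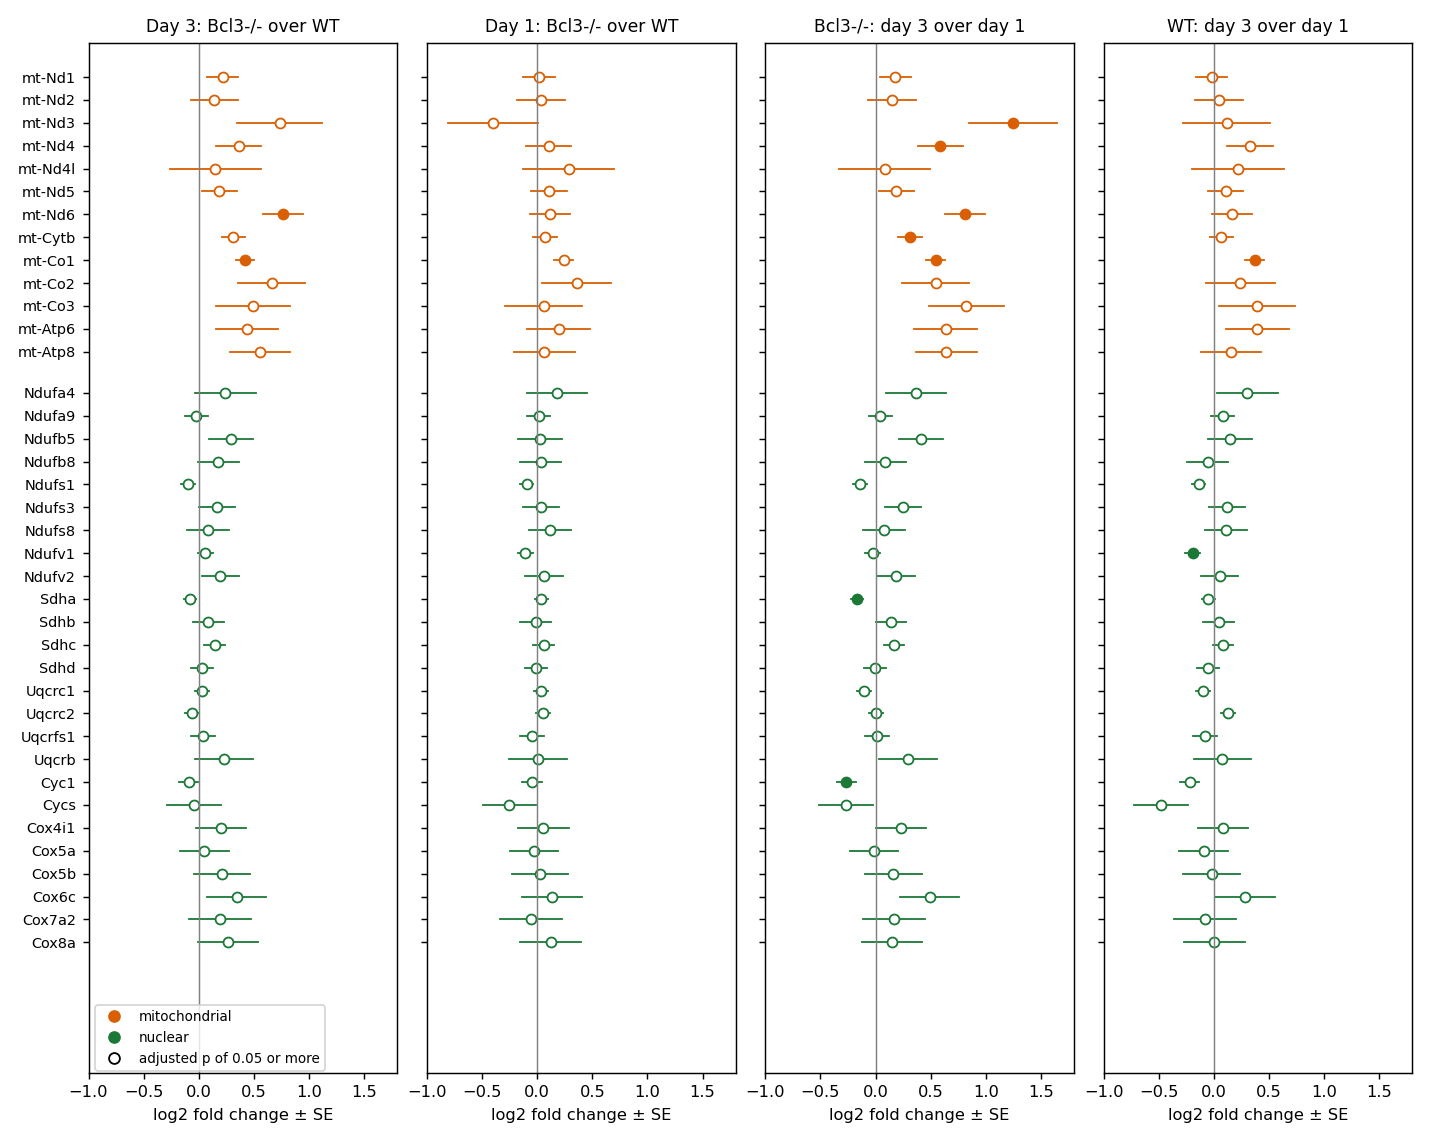
Log2 fold change ± SE (horizontal) of each of the 38 members in the 4 comparisons, with mitochondrial members above and nuclear members below. Filled points passed an edgeR adjusted p of 0.05. On day 3 all 13 mitochondrial points lie right of 0, with mt-Nd6 at 0.76 and mt-Co1 at 0.42 filled, whereas nuclear points lie between -0.10 and 0.34.

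On day 1 none of the 38 members was called between Bcl3-/- and WT libraries, while 9.02% of all genes were called higher and 6.36% lower. At an unadjusted p under 0.05 edgeR had 1 mitochondrial and 0 nuclear members, and DESeq2 and limma on FPKM called 0. The member nearest to a call was again mt-Co1, at 867, 795 and 785 CPM in Bcl3-/- libraries against 639, 664 and 765 CPM in WT libraries. Its Bcl3-/- libraries all lay above WT libraries, as for 3158 of the 16318 genes tested. Its log2FC was 0.24 (SE 0.09, edgeR adjusted p = 0.0762). It passed without day 1 WT replicate 3, and also when day 3 Bcl3-/- replicate 3 was left out of the shared fit. mt-Nd3 had the largest absolute fold change of the mitochondrial members, -0.40 (SE 0.41, edgeR adjusted p = 0.585) on 9 to 47 reads per library, and the sign turned to 0.12 in FPKM. Cycs, soluble cytochrome c, had the largest of the nuclear members, at -0.25 (SE 0.24, edgeR adjusted p = 0.554). Medians were 0.10 over mitochondrial, 0.03 over nuclear and 0.00 over all genes, and the nuclear median was -0.00 when counts were scaled by their total only and -0.01 in FPKM.

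Between day 1 and day 3 in Bcl3-/- cultures, 5 mitochondrial members were called higher and 0 lower, and 2 nuclear members were called lower and 0 higher. Of all genes tested 16.2% were called higher and 17.1% lower. This comparison shares its day 3 libraries with the genotype comparison of that day. mt-Co1 averaged 1191 ± 100.3 CPM on day 3 and 815 ± 44.6 CPM on day 1 (SD, n = 3 each), a log2FC of 0.55 (SE 0.09, edgeR adjusted p = 0.000493). mt-Nd6 averaged 116 ± 29.6 CPM on day 3 and 66.4 ± 10.0 CPM on day 1, a log2FC of 0.81 (SE 0.18, edgeR adjusted p = 0.00543). Both calls were kept without any of the 6 libraries compared and under all 12 other settings tried.

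The other calls in Bcl3-/- cultures were lost more often: that of mt-Cytb in 6 of 12 other settings and 4 of 6 fits that left out a library, that of mt-Nd4 in 6 of 12 and 5 of 6, and that of mt-Nd3 in 3 of 11 and 4 of 6. mt-Cytb stood at 1213, 1359 and 1033 CPM on day 3, against 1044, 886 and 975 CPM on day 1, with a slight overlap (log2FC 0.31, edgeR adjusted p = 0.039). mt-Nd4 stood at 321, 335 and 183 CPM on day 3, against 210, 159 and 190 CPM on day 1, and its groups overlapped (log2FC 0.59, edgeR adjusted p = 0.0484). mt-Nd3 stood at 1.30, 1.52 and 0.736 CPM on day 3, against 0.607, 0.307 and 0.593 CPM on day 1, values that rest on few reads of a copied gene (log2FC 1.25, SE 0.40, edgeR adjusted p = 0.0291). On log2(FPKM + 1) its difference was 0.31 (limma adjusted p = 0.483). In limma on unfiltered FPKM only mt-Nd6 and mt-Co1 of the mitochondrial members were called. The median was 0.55 over mitochondrial members and 0.09 over nuclear members, the second of which turned to -0.04 in FPKM. With the culture as a block, mt-Nd4 was not called and the other 4 were.

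Of the nuclear members Sdha (chr13:74322254-74350280, minus strand) fell to 262, 264 and 262 CPM in day 3 Bcl3-/- libraries, against 283, 303 and 299 CPM on day 1. The days did not overlap, and 3900 of the 16318 genes tested likewise had all day 3 libraries below day 1. The spread of Sdha on day 3 was small (log2FC -0.17, SE 0.06, edgeR adjusted p = 0.0388). Cyc1 (chr15:76343523-76346260, plus strand), the cytochrome c1 of complex III, fell to 91.4, 88.8 and 73.8 CPM on day 3, against 102, 99.4 and 104 CPM on day 1 (log2FC -0.26, SE 0.09, edgeR adjusted p = 0.0345). Each of these calls was kept in 1 of 6 fits that left out a library, and both were lost with upper-quartile normalization. With the culture as a block Ndufb5, an accessory subunit of complex I, was called higher beside the lower calls of Sdha and Cyc1. Cox6c had the largest nuclear fold change, 0.49 (SE 0.27, edgeR adjusted p = 0.192). With 1 library of this comparison left out in turn, 2 to 10 mitochondrial members were called. The highest count came without day 3 Bcl3-/- replicate 3, with 10 called higher, all but mt-Nd1, mt-Nd2 and mt-Nd4l. The nuclear calls were then Ndufb5 higher and Ndufs1 lower. Of all genes tested in that fit, 15.1% were called higher and 17.3% lower. The medians in that fit were 0.82 over mitochondrial and 0.24 over nuclear members.

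**Figure D4:**
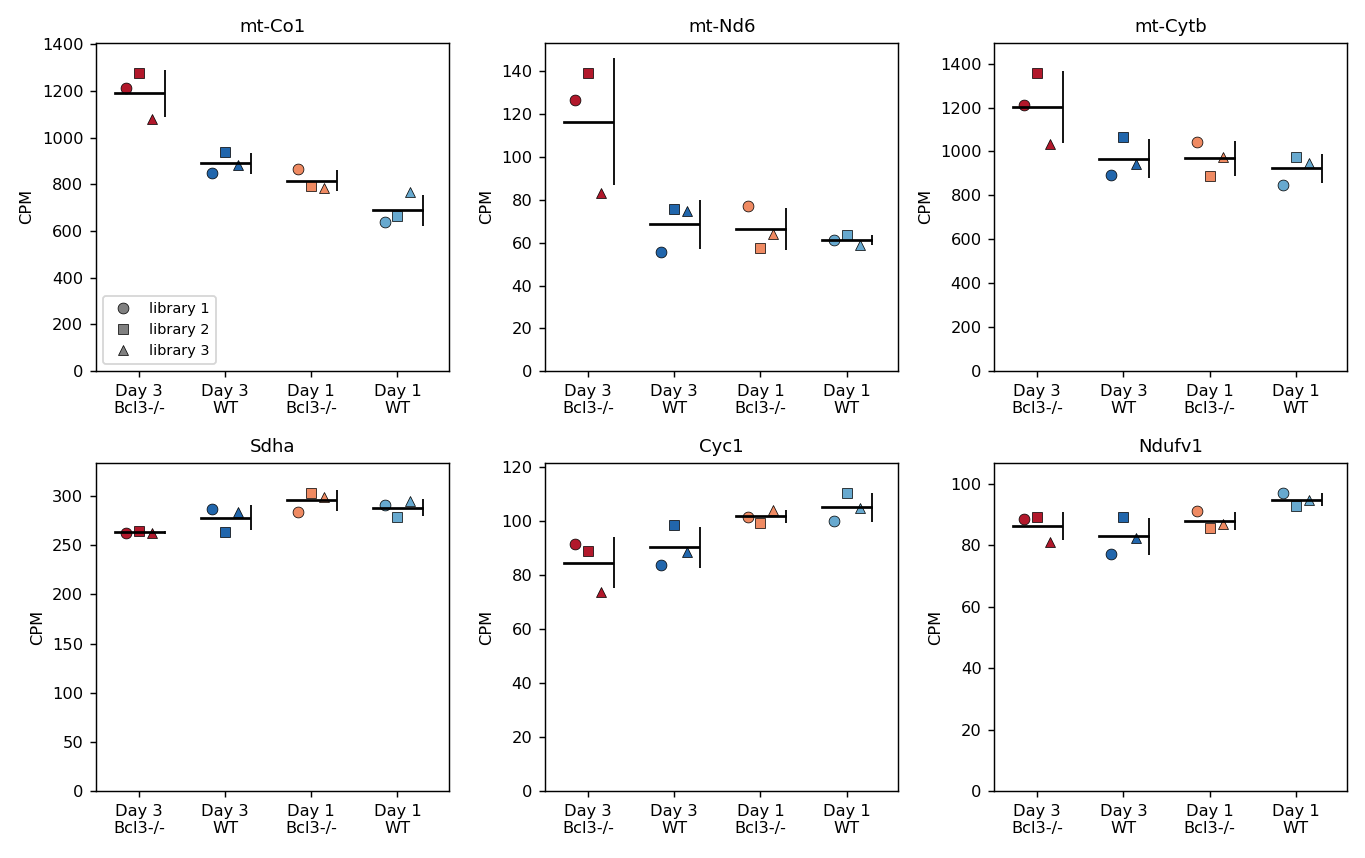
TMM-scaled CPM of 6 called members in each library, with means (horizontal lines) and ± SD (vertical lines, n = 3). mt-Co1 lies between 1082 and 1279 CPM in day 3 Bcl3-/- libraries, above all others, whereas Sdha and Cyc1 are lowest on average in that group, at 263 and 84.7 CPM.

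In WT cultures 1 mitochondrial member was called higher on day 3 than on day 1 and 1 nuclear member lower, while 20.6% of all genes were called higher and 17.9% lower. mt-Co1 averaged 891 ± 44.9 CPM on day 3 and 690 ± 66.9 CPM on day 1 (SD, n = 3 each), a log2FC of 0.37 (SE 0.09, edgeR adjusted p = 0.00443). Ndufv1 (chr19:4007384-4012806, minus strand), the NADH-binding core subunit of complex I, fell to 77.0, 89.2 and 82.4 CPM on day 3, against 97.0, 92.7 and 94.7 CPM on day 1. Its log2FC was -0.19 (SE 0.07, edgeR adjusted p = 0.0397), and the call was kept in 1 of 6 fits that left out a library. With the culture as a block Ndufv1 was not called and Cyc1 was, lower on day 3. The largest fold changes that did not pass were those of mt-Atp6 (0.39, SE 0.29) and Cycs (-0.48, SE 0.24), with edgeR adjusted p of 0.308 and 0.146. The median was 0.17 over mitochondrial members and 0.00 over nuclear members, and -0.09 over nuclear members both in FPKM and with total count scaling, which moved the median of all genes to -0.10.

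The change over time differed between genotypes for none of the 38 members in the test of the difference itself, for which 0.919% of all genes passed. At an unadjusted p under 0.05 edgeR had 1 mitochondrial member, mt-Nd6 (difference 0.65, SE 0.26, edgeR adjusted p = 0.325), and 0 nuclear members, and DESeq2 and limma on FPKM called 0. A call in Bcl3-/- but not in WT cultures therefore does not show that the genotypes differed in that change. The differences had medians of 0.24 over mitochondrial and 0.10 over nuclear members. Without day 3 Bcl3-/- replicate 3 these were 0.49 and 0.26, and still none was called, with 6 mitochondrial members and 1 nuclear member at an unadjusted p under 0.05.

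The members differed widely in how far replicate libraries lay apart. Over the 25 nuclear members the SD of log2 CPM within groups went with coding length, at a Spearman rho of -0.91, a description across genes that share the same 12 libraries. The 7 members with a coding length of at most 387 bases (Ndufa4, Uqcrb, Cycs, Cox5b, Cox6c, Cox7a2 and Cox8a) had an SD between 0.35 and 0.41. The 5 of at least 1359 bases (Ndufs1, Ndufv1, Sdha, Uqcrc1 and Uqcrc2) had an SD between 0.05 and 0.07. Median SDs were 0.31 over mitochondrial members, 0.24 over nuclear members and 0.18 over all genes. The spread carried into the test: on day 1 the SE of the genotype difference was 0.24 for the short Cycs, and over time in Bcl3-/- it was 0.27 for the short Cox6c and 0.06 for the long Sdha.

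The same libraries were low in short nuclear members and in mitochondrial members. The short members lay below their group mean, on the log2 scale, by an average deviation of -0.57 in day 3 Bcl3-/- replicate 3, -0.35 in day 3 WT replicate 1, -0.30 in day 1 Bcl3-/- replicate 2 and -0.33 in day 1 WT replicate 1. The mitochondrial members deviated by -0.55, -0.21, -0.21 and -0.19 in these 4 libraries. The long members deviated by at most -0.04 in them, so the levels of Sdha or Ndufs1 did not show which libraries these were. In day 3 Bcl3-/- replicate 3, 0 of 13 mitochondrial and 2 of 25 nuclear members lay above the group mean.

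**Figure D5:**
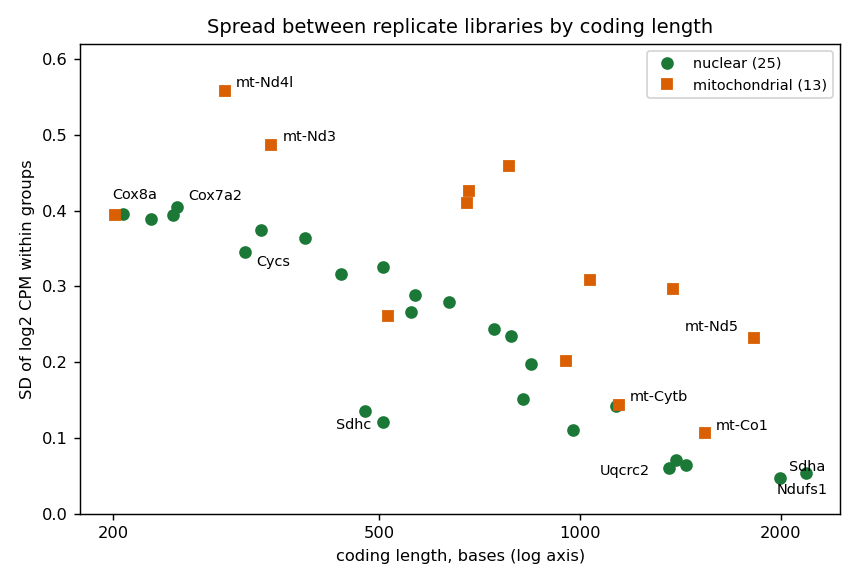
SD of log2 CPM within groups (vertical) against coding length in bases (horizontal, log axis) for 25 nuclear members (circles) and 13 mitochondrial members (squares). Nuclear members run from 0.41 for Cox7a2 to 0.05 for Sdha, and mt-Nd4l and mt-Nd3, which have few reads, are the most variable members.

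Further genes of the same pathways were taken from lists written for this work. With all libraries, 9.02% of all genes were called higher and 6.36% lower by genotype on day 1, and 4.78% and 5.66% on day 3. Over time the shares were 16.2% and 17.1% in Bcl3-/- and 20.6% and 17.9% in WT. Of 28 other subunits of complex I, 0 were called between genotypes on either day. Over time Ndufv3, a small subunit of the NADH-binding module, rose in both genotypes (log2FC 0.76 in Bcl3-/- and 0.74 in WT, edgeR adjusted p = 0.00423 and 0.0037). By genotype on day 3, 27 of the 28 subunits had a positive log2FC, as had 8089 of the 16318 genes tested. The median of the 28 was 0.28, and 0.50 without day 3 Bcl3-/- replicate 3. Without that library 8 of the 28 were called higher over time in Bcl3-/-, where 15.1% of all genes were. Of 9 other subunits of complexes III and IV none was called in any comparison, and the day 3 genotype median was 0.24. With day 3 Bcl3-/- replicate 3 left out the median was 0.50, and Cox7a2l was called higher over time in Bcl3-/- (0.49, edgeR adjusted p = 0.0131). Of 17 nuclear ATP synthase subunits only Atp5b, the catalytic β subunit, was called with all libraries. Leaving out day 3 Bcl3-/- replicate 3 added Atp5e, higher over time in Bcl3-/- (0.86, edgeR adjusted p = 0.0293). Atp5b stood at 1006, 984 and 959 CPM in day 3 Bcl3-/- libraries, against 1175, 1227 and 1216 CPM on day 1. Atp5b fell in both genotypes (log2FC -0.30 in Bcl3-/- and -0.24 in WT, edgeR adjusted p = 0.00173 and 0.00442). The isoform Ndufa4l2, which is known as a target of hypoxia-inducible factor, rose over time by 3.23 in Bcl3-/- and 4.60 in WT on the log2 scale (edgeR adjusted p = 0.00556 and 0.00143), and stood at 27.3, 18.9 and 30.0 CPM in day 3 Bcl3-/- libraries. It did not pass between genotypes on either day. Of the other 2 isoforms tested, Cox4i2 rose over time in Bcl3-/- (1.62, edgeR adjusted p = 0.0252), at no more than 1.01 CPM in any library. In WT it rose by 1.51 without passing (edgeR adjusted p = 0.0605).

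Other lists hold genes that act on either origin, and their counts stand against 9.02% of all genes called higher and 6.36% lower by genotype on day 1, 4.78% and 5.66% on day 3, 16.2% and 17.1% over time in Bcl3-/- and 20.6% and 17.9% over time in WT. Of 10 nuclear regulators, Ppargc1a, the coactivator PGC-1α that is known to drive mitochondrial biogenesis, was higher in Bcl3-/- on both days. It stood at 3.22, 3.98 and 3.52 CPM in day 3 Bcl3-/- libraries, against 1.02, 0.921 and 1.40 CPM in day 3 WT libraries (log2FC 1.67, SE 0.32, edgeR adjusted p = 0.00754). On day 1 it stood at 1.24, 2.83 and 1.25 CPM in Bcl3-/- libraries, against 0.407, 0.228 and 0.240 CPM in WT libraries (log2FC 2.65, SE 0.39, edgeR adjusted p = 0.00149). The groups did not overlap on either day, at levels that were low throughout. The related coactivator Pprc1 was lower on day 3 in Bcl3-/- (-0.33, edgeR adjusted p = 0.0498). Over time Nrf1, a transcription factor that binds promoters of respiratory chain genes, fell in both genotypes (-0.31 in Bcl3-/- and -0.38 in WT, edgeR adjusted p = 0.0091 and 0.00198).

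Of 16 genes of mitochondrial DNA maintenance and transcription 0 were called between genotypes on either day. Over time Polrmt, the mitochondrial RNA polymerase, fell in both genotypes (-0.55 in Bcl3-/- and -0.64 in WT, edgeR adjusted p = 0.00114 and 0.000276). Of 18 genes of mitochondrial RNA processing and decay, 2 were called lower in Bcl3-/- on day 1: Pde12, which removes poly(A) tails, and Lrpprc, which stabilises mitochondrial mRNAs. Over time 3 of the 18 were called lower in Bcl3-/-, and 6 lower and 1 higher in WT, and without day 3 Bcl3-/- replicate 3 the first count was 6. Lrpprc stood at 73.3, 78.0 and 71.7 CPM in day 1 Bcl3-/- libraries, against 93.9, 84.4 and 85.9 CPM in day 1 WT libraries (log2FC -0.24, SE 0.07, edgeR adjusted p = 0.0428). Of 16 citric acid cycle genes the same 3 were called lower in Bcl3-/- on both days: Cs (citrate synthase), Idh3a (a subunit of isocitrate dehydrogenase) and Dlst (a subunit of 2-oxoglutarate dehydrogenase). The day 3 call of Dlst was lost without day 3 Bcl3-/- replicate 3 (edgeR adjusted p = 0.053). Over time 5 of the 16 were called lower and 1 higher in Bcl3-/-, and 6 lower and 1 higher in WT. Without day 3 Bcl3-/- replicate 3 the lower call of Mdh2 in Bcl3-/- was lost (edgeR adjusted p = 0.103). Pdhb was then called higher (edgeR adjusted p = 0.0385). Cs stood at 251, 246 and 258 CPM in day 3 Bcl3-/- libraries, against 324, 302 and 301 CPM in day 3 WT libraries (log2FC -0.29, SE 0.06, edgeR adjusted p = 0.00773). Of 78 mitochondrial ribosomal protein genes 0 were called by genotype on day 1 (Mrpl38 and Mrps12 lower without day 3 Bcl3-/- replicate 3) and 1 on day 3, Mrps6, which was higher. Over time 3 of the 78 were called higher and 4 lower in Bcl3-/- (4 and 2 without that library), and 10 lower in WT. Of 40 assembly factors tested, Ndufaf4 alone was called by genotype, lower in Bcl3-/- on day 1. Over time 4 of the 40 were called higher and 4 lower in Bcl3-/-, and 4 higher and 5 lower in WT. Without day 3 Bcl3-/- replicate 3 the higher call of Foxred1 in Bcl3-/- was lost, and Tmem126a and Ndufaf8 were called higher. Neither mitochondrial rRNA gene was called in any comparison, though mt-Rnr2 was called higher over time in each genotype without day 3 Bcl3-/- replicate 3 (0.55 in Bcl3-/- and 0.47 in WT, edgeR adjusted p = 0.00558 and 0.00512). That library did not decide the calls of Ppargc1a, Pprc1, Nrf1, Polrmt, Cs, Idh3a, Mrps6, Atp5b, Ndufv3 or Ndufa4l2 named here.

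Promoters of the nuclear members were searched for the 8-base motif GCATGCGC, which is known to be bound by NRF1, on both strands from 250 bases before to 50 bases after the start site (RefSeq, GRCm38.p6). Windows were held for 18 of the 25 members. The motif was in 3 of these 18 (16.7%; Cycs, Sdhb and Uqcrc1), against 891 of 32851 promoters (2.71%). The windows of Cycs and Sdhb, a respiratory carrier and the iron-sulfur subunit of succinate dehydrogenase, are shown as examples with the motif in capitals, at chr6:50566596-50566655 (minus strand) and chr4:140961191-140961250 (plus strand).
Cycs: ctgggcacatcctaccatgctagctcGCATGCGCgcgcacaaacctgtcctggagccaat
Sdhb: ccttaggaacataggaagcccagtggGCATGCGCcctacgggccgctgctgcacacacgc

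The motif begins 60 bases before the start site in Cycs and 54 bases before it in Sdhb. The ETS motif CCGGAAGT was found in 2 of 18 (11.1%, against 3.89% of all promoters), the YY1 motif AAGATGGC in 2 (11.1%, against 2.75%) and the ERR motif CAAGGTCA in 1 (5.56%, against 1.56%). Cycs, Sdhb and Uqcrc1 were not called by edgeR in any comparison. Such a match is a description of the letters and not of a bound site.

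Markers of other cell types moved with the groups. The 7 adipocyte markers summed to 231 to 288 CPM in day 3 Bcl3-/- libraries, against 50.6 to 93.3 CPM in day 3 WT libraries, and to 84.6 to 104 CPM in day 1 Bcl3-/- libraries, against 25.3 to 36.9 CPM in day 1 WT libraries. Of the 4 that passed the filter, 3 were called higher in Bcl3-/- on day 3 and 2 on day 1, beside 4.78% and 9.02% of all genes. Without day 3 Bcl3-/- replicate 3 all 4 were called higher on day 3, beside 3.57% of all genes. Lpl made up most of the sum, Cidec was at 0 in every library, and Adipoq and Plin1 reached at most 0.421 and 0.136 CPM. The 8 macrophage markers were all called higher over time in both genotypes, against 16.2% of all genes in Bcl3-/- and 20.6% in WT, and summed to 461 to 891 CPM in day 3 Bcl3-/- libraries, against 704 to 1091 CPM in day 3 WT libraries. The 5 smooth muscle markers summed to 1969 to 2229 CPM in day 3 Bcl3-/- libraries, against 2546 to 2978 CPM in day 3 WT libraries. Of these, 2 were called lower in Bcl3-/- on day 1 and 3 on day 3, beside 6.36% and 5.66% of all genes. The 12 skeletal muscle markers summed to 12.2 to 23.4 CPM in day 3 Bcl3-/- libraries, against 9.38 to 13.6 CPM in day 3 WT libraries. On day 1 they summed to 18.9 to 40.4 CPM in Bcl3-/- and 12.2 to 16.4 CPM in WT libraries, without overlap. Of the 9 tested, 3 were called higher in Bcl3-/- on day 1 and 1 on day 3, beside 9.02% and 4.78% of all genes. The markers of brown adipocytes, red cells and neutrophils each summed to under 1 CPM in every library. The part of these cell types in the ratio and in the calls of mitochondrial members was not tested.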

How the data were processed

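RNA of 12 libraries was sequenced by the authors. Reads were trimmed with Trim Galore, aligned with TopHat2 to GRCm38 and counted per gene with HTSeq, and FPKM were made with Cufflinks. Versions, the strand setting and the annotation release are not given in the sources used here. The counts deposited for 49585 genes are whole, unscaled reads; another 5 entries, which hold reads outside genes (12.3 to 14.7% per library), stayed out. The deposited FPKM values are levels per length and depth made by the authors, of which those of 49318 genes entered; a stray header (1) and 49 entries holding several values for a library did not. The authors' own comparisons were not used. No library repeated another over 66 pairs.

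Genes were kept by filterByExpr, scaled by TMM (factors 0.951 to 1.05) and fitted in 4 groups with edgeR 4.0.16 (robust quasi-likelihood) in R 4.3.3; the biological coefficient of variation was 13.5%. Contrasts were genotype on each day, time in each genotype and their interaction. Exact permutation tests, two-sided, served for ratios and shares. Except for the change of the ratio by culture, those over time treated the libraries of a culture as independent. Scripts were tested on simulated data. Alternatives were DESeq2 1.42.0, limma 3.58.1 on log2(FPKM + 1) and log2(FPKM + 0.1), other scalings and filters, replicate blocks, and leaving out each library. A further 2 ratios, without genes that have an annotated copy and with the FPKM of copies added, were chosen after seeing the data. So were the values of ratios, shares and lists without day 3 Bcl3-/- replicate 3. Gene positions came from GENCODE M21 and sequences from GRCm38 and RefSeq. Python 3.11.15 with numpy 2.4.6, pandas 2.3.3, scipy 1.17.1 and matplotlib 3.10.9 was used.

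The labels give each culture a library on both days, so culture codes pair the days. Deviations of libraries of one culture from their group means correlated at 0.24 to 0.33 in WT and at -0.16 to -0.02 in Bcl3-/- cultures.

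Named are all mitochondrial members, each called member, the member of each origin with the largest absolute fold change per contrast, and up to 4 called genes per further list and contrast. Sdhc, Ndufs1, Ndufb5, Cox7a2l, Atp5e, Mrpl38, Mrps12 and mt-Rnr2 were singled out after their values were seen. So were Mdh2, Pdhb, Foxred1, Tmem126a and Ndufaf8, and members without a call that are given as the nearest to one. Members and lists were chosen with earlier results of these data known. A result of 1 further gene is not reported here.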

Additional observations from a re-analysis of the deposited data

How the results depend on the processing

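The higher ratio of mitochondrial to nuclear counts kept its sign in all 4 comparisons under each alternative, with differences of 0.0434 to 0.0882 by genotype on day 1, 0.186 to 0.270 on day 3, 0.0683 to 0.204 over time in WT and 0.211 to 0.386 over time in Bcl3-/- libraries. With each library left out in turn they were 0.0568 to 0.118, 0.183 to 0.267, 0.132 to 0.191 and 0.258 to 0.343. As a difference of mean log2 CPM, however, the day 3 genotypes overlapped and the day 1 genotypes did not. The shares were less stable. The mitochondrial share lay between 0.0493 and 0.117 percentage points for day 3 genotype and between 0.0437 and 0.111 over time in Bcl3-/- with 1 library left out. The mitochondrial share over time in WT turned to -0.00201 percentage points with members that overlap no other exon and lay between -0.00758 and 0.0257 with 1 library left out. The nuclear share turned to 0.00533 in FPKM and to 0.0168 as a mean of log2 CPM for day 1 genotype and to 0.0705 as a mean of log2 CPM over time in Bcl3-/-; with 1 library left out it lay between -0.0145 and 0.00803 (day 1), -0.00363 and 0.0316 (day 3) and -0.0191 and 0.0156 (time in Bcl3-/-).

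Counts of called members changed as follows, and the cause was not tested. The share of all genes called under each setting is not given here, so these counts cannot be set against it. For mitochondrial members, day 1 genotype (0) gave 1 at an adjusted p under 0.1 and 1 without a count filter; day 3 genotype (2) gave 0 with log2(FPKM + 1) or log2(FPKM + 0.1), and 1 without a count filter or with only the 6 libraries compared; time in WT (1) gave 0 with log2(FPKM + 1); time in Bcl3-/- (5) gave 2 with either FPKM scale, and 3 without a count filter, with only 6 libraries or with total count scaling. For nuclear members, time in WT (1) gave 0 at 1 CPM in 6 libraries, without a filter, with only 6 libraries or with upper-quartile scaling, 3 at an adjusted p under 0.1 or with either FPKM scale, 4 with filtered FPKM and 5 with total count scaling; time in Bcl3-/- (2) gave 0 with upper-quartile scaling, 1 at 1 CPM in 6 libraries, without a filter or with only 6 libraries, and 4 with log2(FPKM + 1), filtered or not, or with total count scaling. Leaving out 1 library gave 0 to 1 mitochondrial members for day 1 genotype, 0 to 6 for day 3 genotype and 2 to 10 over time in Bcl3-/-, and 0 to 2 nuclear members over time in either genotype. Day 1 mt-Nd3 turned to 0.117 with log2(FPKM + 0.1) and 0.116 with log2(FPKM + 1), filtered or not. Of 199 alternative values of 11 single calls 135 kept the call, 64 lost it and 0 reversed.

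With the replicate block by culture, 4 mitochondrial and 3 nuclear members were called over time in Bcl3-/- and 1 and 1 in WT. The share of all genes called in that fit is not given either. For genotype the title numbers pair nothing in the labels; their deviations correlated at -0.06 to 0.04 (day 1) and 0.06 to 0.21 (day 3), and that block gave 0 and 2 mitochondrial calls. Depth limits mt-Co2, mt-Co3, mt-Nd3 and mt-Nd4l, with 768, 600, 296 and 256 reads over all libraries.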
